A study of Mus musculus with 36 samples.

Results

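The hypothalamus of Dicer cKO mice was compared with that of control mice 8 weeks after treatment, on 3 arrays of each group, which are 6 of the 36 arrays of the series. The arrays were taken by their titles, as tamoxifen or vehicle at 8 weeks in the hypothalamus. Expression of cortex, hypothalamus and hippocampus was profiled in mice in which Dicer had been deleted in adulthood, to follow it through the transient obesity that the deletion brings. Each tissue was sampled 4 and 8 weeks after treatment with 3 animals per group. At 8 weeks the same 6 animals also gave the cortex arrays, whereas the 4-week arrays and the 8-week hippocampus arrays came from other animals by the labels.

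The cKO mice were Cre+/Dicerlox/lox animals on a C57BL/6J background that received 10 mg of tamoxifen in all over 5 days, from 8 weeks of age. The control mice were of the same genotype, strain and age and received the vehicle, a mixture of sunflower seed oil and ethanol, on the same schedule. Both groups thus carried the Camk2a-CreERT2 transgene and the floxed Dicer alleles, so that an effect of tamoxifen itself and one of the deletion cannot be told apart here. The Camk2a promoter drives the recombinase in excitatory neurons of the forebrain, and the deletion reaches only cells that use it. The tissue was a block around the third ventricle from the optic chiasm to the mammillary bodies, which holds many nuclei and also glia, vessels and surface membranes.

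Dicer cuts microRNA precursors into the short RNAs that silence messenger RNAs, and loss of this step in neurons is known to disturb and, with time, to kill them. Microglia, the resident macrophages of the brain, take up debris, make the complement component C1q, and on activation turn on genes of phagocytosis and lysosomes. Interferons are released when cells sense foreign or misplaced nucleic acid or other danger. They act through the STAT and IRF factors on a sequence called the interferon-stimulated response element (ISRE) and switch on a set of antiviral genes, in microglia and in other cells. The hypothalamus holds the neurons that govern appetite, sleep, body temperature and, in the suprachiasmatic nucleus, the daily rhythm.

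All values are log2 levels after RMA, a procedure that corrects background, equalises the arrays of a tissue and summarises the probes of each probe set. A difference of 1 on this scale is a doubling. With 1 probe set for each gene, 15423 genes were tested by limma in 1 fit over the 12 hypothalamus arrays, and the p-values carry a Benjamini-Hochberg adjustment. A gene was tested where at least 3 of the 12 arrays reached a minimum level of 4.9. By the rule of the study a gene is called at an FDR of 15%. The replicate numbers name separate animals, with 3 in each group.

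The 6 arrays correlated with each other at Pearson's r between 0.978 and 0.995 over the tested genes. The first principal component held 49.2% of the variance of the 6 arrays, with scores of -26.2, -17.1 and 12.4 for the cKO arrays and 6.43, 12.7 and 11.8 for the control arrays. The third cKO array thus lay with the control arrays on this axis. Actin probe sets at the 3′ and the 5′ end of the transcript, whose difference is used as a sign of RNA quality where labelling starts at the 3′ end, differed by 1.18, 1.24 and 1.20 on the cKO arrays, against 1.32, 1.59 and 1.46 on the control arrays (two-sided exact permutation p = 0.1, the smallest possible). The same difference for Gapdh was 0.023, 0.027 and -0.001 on the cKO arrays, against 0.056, 0.237 and 0.105 on the control arrays (p = 0.1 by the same permutation test). The labels name a whole-transcript kit for this array, so how far these differences read RNA quality here is not settled. Their part in the results below was not tested. Dicer1 had 7.01, 6.89 and 6.93 on the cKO arrays, against 7.06, 6.78 and 7.27 on the control arrays (-0.09 ± 0.12 SE), and the sources used here do not say which part of the transcript its probes cover, so this value does not check the deletion. Pmch, Hcrt and Oxt, peptides of hypothalamic neurons that define the tissue, were between 11.3 and 13.5 on all 6 arrays.

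No gene was called between the cKO and the control hypothalamus at 8 weeks (0% of 15423 genes, lowest adjusted p = 0.194 by limma). At an unadjusted p under 0.05 there were 711 genes higher in the cKO mice (4.61% of all) and 311 lower (2.02%). The 3 cKO arrays all lay above the 3 control arrays for 963 genes (6.24%) and all below them for 956 (6.2%), and both conditions held for 461 genes higher and 228 lower. The split between higher and lower genes depended on the scaling and the test. With each array centred on its median, 598 genes were higher and 616 lower at an unadjusted p under 0.05. With an unpaired t-test on the 6 arrays there were 384 and 431. This test is called the methods' t-test below, because the paper names it for comparing the groups of mice. For the arrays the paper used limma. In the sections that follow, genes are given by their values on each array and by their counts against these shares.

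Of the single arrays left out, the third cKO array changed this result most. When this array was left out, limma called 516 genes, 465 of them higher in the cKO mice (3.01%) and 51 lower (0.331%). Leaving out the first cKO array or any 1 control array left 0 called, and leaving out the second cKO array left 1, Vip. For the 465 genes called higher, the mean of cKO replicates 1 and 2 lay a median of 0.78 above the control mean, whereas the third cKO array lay 0.10 above it. That array was above all 3 control arrays for 221 of the 465 genes (47.5%) and below all 3 for 54 (11.6%), while over all tested genes the shares were 23.7% and 24.7%. The 465 genes were chosen by their differences on the first 2 cKO arrays, so the third is expected to look weaker on them through the choice alone. The same control arrays enter the choice and these shares. For the 51 genes called lower, the third array was below all 3 control arrays for 15 and above all 3 for 13. In these chosen genes the third cKO animal showed the differences of the first 2 weakly or not at all, and how much of this the choice made was not tested. Values on the third cKO array are given below.

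**Figure D1:**
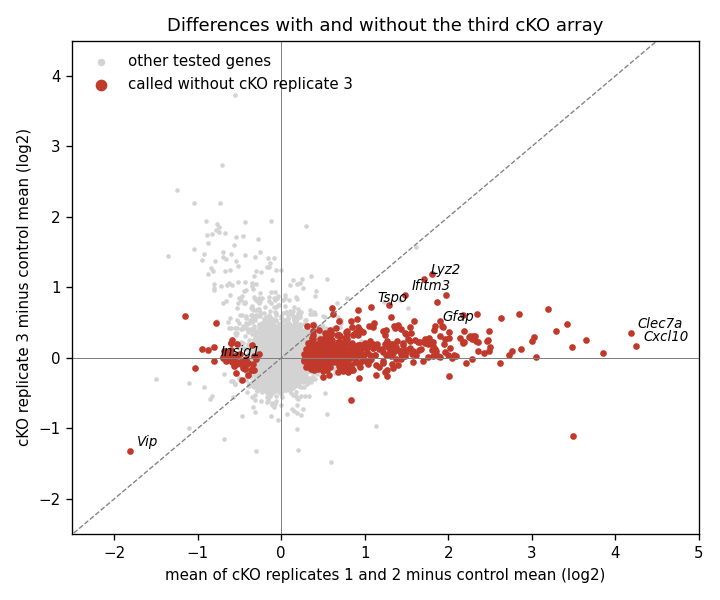
Difference from the control mean for each of 15423 genes, on the horizontal axis for the mean of cKO replicates 1 and 2 and on the vertical axis for cKO replicate 3 (both log2). Red points are the 516 genes called by limma without cKO replicate 3, and the dashed line marks equal differences. The 465 red points on the right have medians of 0.78 on the horizontal and 0.10 on the vertical axis, while Vip, Ifitm3, Lyz2 and Tspo lie off it in the same direction as on the first 2 arrays.

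Genes that interferon switches on had the largest median difference of the 44 gene lists. Of 36 listed genes 32 were tested, and all 32 were higher in the cKO hypothalamus by their means, with a median difference of 1.27 against -0.003 over all genes. At an unadjusted p under 0.05, 29 of the 32 were higher (90.6%, against 4.61% of all genes), and the groups did not overlap for 19 (59.4%, against 6.24%). With the methods' t-test on the 6 arrays, which takes each gene's spread from those arrays alone, 2 of the 32 passed the same level. Without the first cKO array the median difference was 0.83 and 27 passed, and without the third 28 of the 32 were called. The median deviation of the 32 genes from the hypothalamic control arrays of both times was 2.20, 1.46 and 0.22 on the cKO arrays, against 0.06, -0.02 and 0.09 on the control arrays of 8 weeks. The first cKO array was thus the highest, the second lower by less than 1 unit, and the third above the controls by a small margin.

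Cxcl10, a chemokine that draws T cells, had 9.95, 9.17 and 5.47 in the cKO hypothalami, against 5.40, 5.19 and 5.34 in the control hypothalami (difference 2.89 ± 0.83 SE, adjusted p = 0.409 by limma). The first 2 cKO animals stood well above every control animal and the third just above them, so that the groups did not overlap, while the cKO values were spread widely (SD 2.39, against 0.11 in the control mice). Usp18, which removes the ISG15 tag from proteins and damps the interferon receptor, had 9.60, 8.94 and 6.34 in cKO, against 5.58, 5.97 and 6.01 in control hypothalami (2.44 ± 0.60). Here, too, the order was replicate 1, 2 and 3, and the third animal lay above all 3 controls. Ifit1, which binds foreign RNA without the proper cap, had 10.29, 9.50 and 6.99 in cKO and 6.58, 6.46 and 6.76 in control hypothalami, and its neighbour Ifit3 had 10.94, 10.65 and 8.06 in cKO and 7.81, 7.59 and 7.89 in control mice.

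Oasl2, a member of the oligoadenylate synthetase family, reached 10.01, 9.24 and 6.29 in cKO, against 6.02, 6.15 and 6.26 in control hypothalami, so the third cKO animal lay just above the highest control. Iigp1 and Gbp2 encode GTPases that attack the vacuoles of intracellular microbes. Iigp1 had 9.52, 8.53 and 6.81 in cKO and 6.27, 6.06 and 6.22 in control hypothalami (2.10 ± 0.47, adjusted p = 0.369 by limma), and Gbp2 had 9.27, 8.45 and 7.30 in cKO and 6.90, 6.14 and 7.01 in control mice. For both, as for Gbp3 (9.74, 9.02 and 7.26 in cKO, 7.11, 6.96 and 7.01 in control hypothalami), all cKO animals lay above all controls. The chemokines Ccl12 and Ccl5 differed by 2.08 and 1.87, with 9.29, 8.16 and 6.07 in cKO and 6.06, 5.91 and 5.93 in control mice for Ccl5. Trim30a, Rtp4 and Ifi27l2a, other interferon-induced genes, differed by 1.72, 1.95 and 2.36. Members of the Ifit, Gbp and Oas families have close relatives in the genome, and probes shared between them could mix their signals.

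The members with the lowest p were those in which the third cKO animal was also high. Ifitm3, a membrane protein that blocks viral entry, had 11.02, 10.44 and 10.14 in cKO, against 9.63, 8.76 and 9.38 in control hypothalami (1.28 ± 0.24, adjusted p = 0.369 by limma). With the replicate number as a block its adjusted p was 0.0928, past the threshold when the block spanned the 12 arrays of both times, whereas with the block on the 6 arrays of 8 weeks alone no gene was called (lowest adjusted p = 0.572 by limma). Bst2, which tethers budding viruses to the cell, had 8.86, 7.41 and 7.06 in cKO and 6.34, 6.18 and 6.29 in control mice, and Ifi35 had 9.51, 9.01 and 8.33 in cKO and 7.85, 7.79 and 8.04 in control hypothalami. At the other end stood Ifitm1 and Ifitm2, close relatives of Ifitm3 named after their values were seen, with the smallest differences of the list, 0.08 and 0.19. On both genes the third cKO array was the highest of the 6 (7.92, 7.68 and 8.90 in cKO and 8.27, 7.51 and 8.48 in control hypothalami for Ifitm1).

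The stretches just before the transcription start of 6 of these genes are shown because each holds the core of the ISRE, GAAANNGAA, on 1 strand or the other. They are RefSeq sequences of build GRCm38.p6, read 5′ to 3′ on the strand of the gene, with matches in capitals, where overlapping matches run together. Ifit1 lies at chr19:34640729-34640888 and Ifit3 at chr19:34583369-34583528, Gbp2 at chr3:142620503-142620662 and Gbp3 at chr3:142559884-142560043, all on the plus strand. Bst2 at chr8:71537473-71537632 and Cxcl10 at chr5:92348890-92349109 lie on the minus strand.
Ifit1: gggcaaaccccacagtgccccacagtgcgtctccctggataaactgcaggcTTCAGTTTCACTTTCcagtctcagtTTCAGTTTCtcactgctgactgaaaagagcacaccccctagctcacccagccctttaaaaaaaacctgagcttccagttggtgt
Ifit3: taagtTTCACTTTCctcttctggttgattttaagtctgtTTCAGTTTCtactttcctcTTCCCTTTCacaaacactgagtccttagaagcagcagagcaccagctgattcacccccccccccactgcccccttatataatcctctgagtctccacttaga
Gbp2: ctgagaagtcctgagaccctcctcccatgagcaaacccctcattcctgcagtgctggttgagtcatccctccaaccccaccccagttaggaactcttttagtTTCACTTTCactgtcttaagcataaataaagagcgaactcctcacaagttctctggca
Gbp3: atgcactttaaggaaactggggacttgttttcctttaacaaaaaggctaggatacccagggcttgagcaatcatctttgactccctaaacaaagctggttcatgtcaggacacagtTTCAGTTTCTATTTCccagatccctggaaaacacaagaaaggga
Bst2: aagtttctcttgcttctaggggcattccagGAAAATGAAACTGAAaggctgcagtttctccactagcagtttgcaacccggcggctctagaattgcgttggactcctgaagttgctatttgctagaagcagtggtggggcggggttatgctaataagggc
Cxcl10: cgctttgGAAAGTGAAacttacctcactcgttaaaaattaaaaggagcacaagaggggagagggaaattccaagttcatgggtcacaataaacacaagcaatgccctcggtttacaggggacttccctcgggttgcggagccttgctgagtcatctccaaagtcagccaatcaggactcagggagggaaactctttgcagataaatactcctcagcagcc
The windows of Ifit1 and Ifit3 hold 3 matches each, those of Gbp3 and Bst2 2 and those of Gbp2 and Cxcl10 1. Of the 14 interferon genes that the naming rule gave, 10 had a RefSeq promoter sequence, which runs from before to just after the start, and 8 of these held the core in at least 1 of their promoters. Over all 27025 genes with such a sequence the share was 9.76%. A match describes letters in this window and is not a site or a cause.

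Genes that mark microglia were higher as well. All 32 tested of 33 listed genes had a higher mean in cKO mice, 27 of them at an unadjusted p under 0.05 (84.4%, against 4.61% of all genes), and the median difference was 0.87. With the methods' t-test 1 passed that level, and 17 did without the first cKO array. The groups did not overlap for 7 of the 32 (21.9%, against 6.24%), and the median difference from the control mean was 0.04 on the third cKO array and 1.35 for the mean of the first 2. On the cKO arrays the median deviation of the list was 1.51, 1.25 and 0.03, against 0.10, -0.10 and 0.01 on the control arrays. In tissue RNA, more microglia and more RNA of these genes per microglial cell cannot be told apart.

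C1qa, a chain of the complement component C1q, had 12.49, 11.83 and 10.15 in cKO, against 9.99, 9.72 and 9.82 in control hypothalami (1.65 ± 0.42 SE, adjusted p = 0.405 by limma), and its 3 cKO values lay above all controls. Aif1, a marker of microglia in tissue sections, had 9.25, 8.70 and 7.10 in cKO and 7.26, 6.89 and 6.91 in control hypothalami, with the third cKO value inside the range of the controls. Csf1r, the receptor that microglia need to survive, had 10.50, 10.17 and 9.24 in cKO and 9.26, 9.25 and 9.32 in control mice, and Cx3cr1, the receptor of a neuronal chemokine, 9.46, 9.15 and 8.28 in cKO and 8.28, 8.29 and 8.17 in control mice. The differences of P2ry12 and Tmem119, a pair of microglial genes chosen after their values were seen, were smaller. P2ry12, a receptor of nucleotides, had 7.97, 8.08 and 7.79 in cKO and 8.08, 7.35 and 7.94 in control hypothalami (0.16 ± 0.20), and Tmem119 had 8.17, 8.09 and 7.86 in cKO and 7.82, 7.79 and 7.90 in control mice (0.20 ± 0.10). Without the third cKO array, P2ry12 and Tmem119 were still not called (adjusted p = 0.923 and 0.226), whereas 29 of the 32 members were.

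Olfml3, a secreted protein of microglia, was the member with the lowest p, with 9.36, 9.00 and 8.64 in cKO and 8.22, 8.12 and 8.38 in control mice (0.76 ± 0.18 SE). The third cKO value lay between the other cKO values and the controls. Fcgr3, an antibody receptor, had 9.84, 9.42 and 7.94 in cKO and 7.78, 7.44 and 7.78 in control mice, and Ptprc, the leukocyte common antigen CD45, 8.79, 8.35 and 6.62 in cKO and 6.36, 6.05 and 6.55 in control mice, both without overlap.

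Of 28 tested genes that microglia turn on when activated, 24 were higher at an unadjusted p under 0.05 (85.7%, against 4.61% of all genes). With the methods' t-test 4 passed that level. The groups did not overlap for 15 of the 28 (53.6%, against 6.24%), and the median difference was 0.90. Clec7a, a receptor of fungal glucan and of debris, had 9.70, 9.18 and 5.62 in cKO, against 5.56, 5.0 and 5.23 in control hypothalami (2.91 ± 0.76 SE), the largest of all tested genes. Cd52, a surface glycoprotein of leukocytes, had 10.72, 9.88 and 6.91 in cKO and 6.86, 6.51 and 6.58 in control mice, and Itgax, an integrin chain of dendritic cells and of activated microglia, 8.34, 7.42 and 5.49 in cKO and 5.32, 5.45 and 5.39 in control mice. In these 3 genes the third cKO animal lay less than 0.1 above the highest control, far from the first 2 animals. Cd68, a glycoprotein of the lysosome of phagocytes, had 9.28, 8.77 and 6.77 in cKO and 6.81, 6.47 and 6.72 in control hypothalami, with an overlap at the third animal. Cd14, a receptor of bacterial lipopolysaccharide, had 7.96, 7.67 and 6.23 in cKO and 5.96, 5.96 and 5.83 in control mice, without overlap. Apoe, which carries lipids between cells and is made by astrocytes and activated microglia, differed by 0.41 ± 0.11 from high levels (13.36, 13.12 and 12.88 in cKO and 12.69, 12.66 and 12.78 in control hypothalami).

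**Figure D2:**
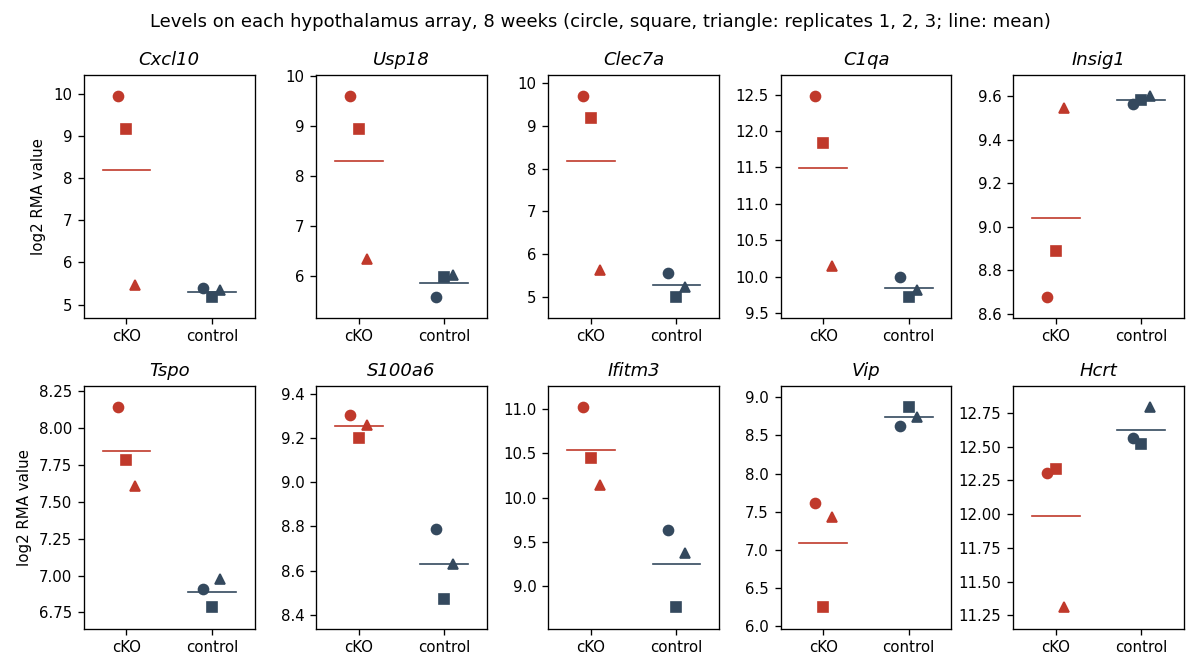
Log2 RMA value of 10 genes on each hypothalamus array of 8 weeks, with cKO arrays in red on the left and control arrays in blue on the right of each panel. Circles, squares and triangles are replicates 1, 2 and 3, and lines are means of 3 arrays; axes differ between panels. For Cxcl10, Usp18, Clec7a, C1qa and Insig1 the triangle of the cKO group lies near the controls, whereas for Tspo, S100a6, Ifitm3 and Vip all 3 cKO arrays lie away from them.

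Genes of antigen presentation showed the same order of animals. All 17 tested members were higher, with a median difference of 0.94. At an unadjusted p under 0.05, 15 were higher (88.2%, against 4.61% of all genes). The groups did not overlap for 8 (47.1%, against 6.24%). With the methods' t-test 0 of the 17 passed that level, and without the first cKO array 10 did, at a median of 0.61. The median deviation was 1.89, 0.72 and 0.35 on the cKO arrays, against 0.21, -0.13 and 0.13 on the control arrays. B2m, the light chain of MHC class I, had 12.64, 12.35 and 11.06 in cKO and 10.97, 10.43 and 10.60 in control hypothalami (1.35 ± 0.31). H2-D1, a class I heavy chain, had 9.27, 8.59 and 7.29 in cKO and 6.97, 6.99 and 6.81 in control mice, and Nlrc5, the activator of class I genes, 7.65, 7.10 and 5.43 in cKO and 5.0, 5.35 and 5.0 in control mice. For these 3 genes the third cKO animal exceeded every control. Cd74, the chain that escorts class II molecules, had 10.03, 8.36 and 8.12 in cKO and 7.46, 6.57 and 7.64 in control hypothalami. Class I genes are close relatives, so their probe sets may share signal, and of 6 other probe sets of H2-D1 1 had a difference below 0 (-0.12).

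Among 13 genes of complement, 6 were higher at an unadjusted p under 0.05 (46.2%, against 4.61% of all genes). The groups did not overlap for 3 of the 13 (23.1%, against 6.24%). C1qb (1.72) and C1qc (1.61) stood beside C1qa, and the complement receptor chain Itgb2 differed by 1.25. On the third cKO array C1qb had 9.66, against 9.68, 9.18 and 9.42 in control mice. Itgb2 had 5.95 on that array, below all controls (6.29, 6.05 and 6.27). Of 18 genes of the lysosome, 14 were higher at an unadjusted p under 0.05 (77.8%) and 11 did not overlap (61.1%, against 6.24%). With the methods' t-test 1 passed that level, and without the first cKO array 10 did. The median difference without that array was 0.27, against 0.42 with all arrays. Ctsc, a protease that activates others, had 9.63, 9.20 and 7.94 in cKO and 7.59, 7.20 and 7.69 in control hypothalami, Ctsz 10.48, 9.95 and 8.92 in cKO and 8.63, 8.61 and 8.77 in control mice, and Grn, the progranulin precursor, 10.66, 10.13 and 9.28 in cKO and 9.15, 9.07 and 9.15 in control mice. In each, all cKO animals lay above all controls. Of 20 genes of Toll and interleukin-1 signalling, 12 were higher at that level (60.0%, against 4.61% of all genes), by a median of 0.25 over the list. Of the 12, 1, Ly96, was tested only because the cKO arrays of 8 weeks reached the minimum level. The adaptor of the inflammasome, Pycard, differed by 1.27, and Tnfrsf1b, a receptor of tumour necrosis factor, by 0.40 with 6.85, 6.68 and 6.57 in cKO and 6.43, 6.31 and 6.18 in control hypothalami (0.10 on its other probe set).

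**Figure D3:**
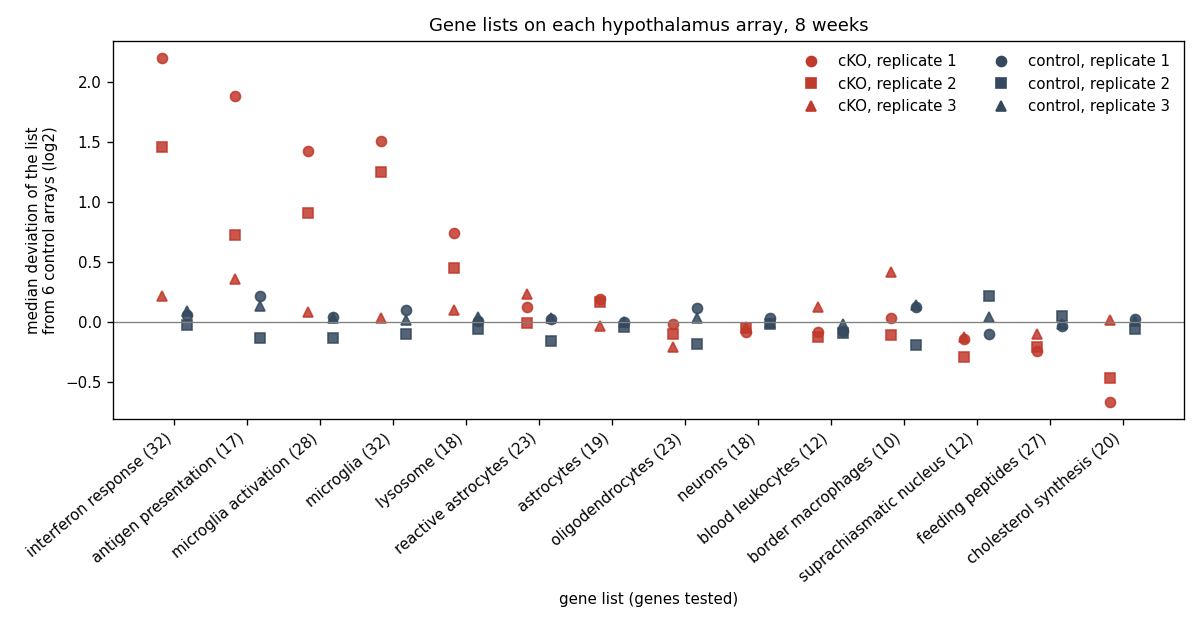
Median deviation of the members of 14 gene lists on each hypothalamus array of 8 weeks, from each gene's median over the 6 hypothalamic control arrays of both times (log2); the number of tested genes is in brackets. Red marks are cKO arrays and blue marks control arrays, with circles, squares and triangles for replicates 1, 2 and 3. In the 5 lists on the left the first 2 cKO arrays lie between 0.45 and 2.20, and in cholesterol synthesis they lie at -0.67 and -0.47.

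A smaller set of genes was high in all 3 cKO animals and gave the lowest p-values on the higher side. Tspo, a protein of the outer mitochondrial membrane that is used to image activated glia, had 8.14, 7.78 and 7.61 in cKO, against 6.91, 6.78 and 6.98 in control hypothalami (0.95 ± 0.13 SE, 1.94-fold, adjusted p = 0.194 by limma). The lowest cKO value lay well above the highest control value, and with the replicate number as a block its adjusted p was 0.0681 in the fit of 12 arrays, so that it was called there, but not with the block on the 6 arrays of 8 weeks alone. S100a6, a calcium-binding protein of astrocytes and of damaged tissue, had 9.30, 9.20 and 9.26 in cKO and 8.79, 8.47 and 8.63 in control hypothalami (0.62 ± 0.10, adjusted p = 0.247). The third cKO animal lay between the other two. Lyz2, a lysozyme of phagocytes, had 9.61, 9.10 and 8.76 in cKO and 7.80, 7.06 and 8.08 in control mice, and Lyz1, its close relative, 10.78, 10.31 and 9.92 in cKO and 9.03, 7.77 and 9.42 in control mice. Because both lysozymes share sequence, their signals cannot be told apart with certainty.

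Batf3, a transcription factor of dendritic cells, had 5.83, 5.76 and 5.56 in cKO and 5.35, 5.11 and 5.31 in control hypothalami. Plekha4, Baz1a, a chromatin remodelling subunit, Tmem106a and Plscr2, a phospholipid scramblase, completed the 10 lowest p-values, with differences of 1.07, 0.58, 0.51 and 1.11, all without overlap. For Baz1a and Plscr2 only cKO arrays of 8 weeks reached the minimum level of 4.9 (Plscr2 had 5.50, 5.41 and 4.92 in cKO and 3.75, 4.37 and 4.38 in control mice), so the genes were tested because they were high there, and their differences rest on control values under that level. The 3 other probe sets of Plekha4 differed by 0.0050 to 0.0634, that of Tmem106a by 0.11 and that of Baz1a by 0.23. Timp1, an inhibitor of matrix proteases that astrocytes make after injury, had 6.22, 5.35 and 5.55 in cKO and 4.84, 4.89 and 4.88 in control hypothalami, the controls all under the minimum level. Socs3, which damps cytokine and leptin signalling, had 7.18, 6.77 and 6.79 in cKO and 6.24, 6.30 and 6.64 in control mice (0.52 ± 0.15, adjusted p = 0.409 by limma). Of 8 tested genes of neuronal injury, 4 were higher at an unadjusted p under 0.05 (50.0%, against 4.61% of all genes). They were Atf3 by 0.50, Gadd45b by 0.38, Sox11 by 0.35 and Ddit3 by 0.23, and in all 4 the cKO and control animals did not overlap. Over the list 5 of the 8 were higher without overlap (62.5%, against 6.24%). For Sox11 2 of 5 other probe sets differed in the other direction. The other probe set of Ddit3 differed by 0.0088 with an overlap, and those of Gadd45b by 0.0477 and 0.35. Fos, an immediate early gene, had 9.22, 9.21 and 9.04 in cKO and 8.16, 8.66 and 8.75 in control hypothalami. Egr2, another, had 6.62, 5.68 and 4.95 in cKO and 4.82, 4.79 and 4.78 in control mice. Both were without overlap, with the controls of Egr2 under the minimum level. Of 16 tested immediate early genes, 10 had a higher and 6 a lower mean in cKO mice. At an unadjusted p under 0.05, 3 were higher (18.75%, against 4.61% of all genes) and 1 lower (6.25%, against 2.02%).

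Genes of cholesterol synthesis lay on the lower side. All 20 tested members had a lower mean in cKO mice, with a median difference of -0.37, and 13 were lower at an unadjusted p under 0.05 (65.0%, against 2.02% of all genes). This count rested on the fit and on single arrays, and was 2 with the 6 arrays alone, 0 with the methods' t-test, 9 with the replicate block, 1 without cKO replicate 1, and 2 without cKO replicate 2 or control replicate 1. Leaving out the first cKO array gave the list a median of -0.23, and leaving out the third one of -0.57. The groups did not overlap for 2 of the 20 (10.0%, against 6.2%), Insig1 and, named after its values were seen, Pmvk. On the cKO arrays the median deviation was -0.67, -0.47 and 0.01, against 0.02, -0.06 and 0.00 on the control arrays. The third cKO array was level with the controls, and without it 13 of the 20 were called lower.

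Insig1, which holds the SREBP factors back in the endoplasmic reticulum and is itself one of their target genes, had 8.68, 8.89 and 9.55 in cKO, against 9.56, 9.58 and 9.60 in control hypothalami (-0.55 ± 0.17 SE, adjusted p = 0.459 by limma). Its 3 control values lay close together, with the third cKO animal just below them and the first 2 far below. Sqle, which oxidises squalene, had 9.51, 9.74 and 10.23 in cKO and 10.33, 10.18 and 10.28 in control mice, and Fdps, which makes farnesyl diphosphate, 8.94, 9.23 and 9.79 in cKO and 9.92, 9.64 and 9.80 in control mice. Idi1, an isomerase of the same pathway named after its values were seen, had 7.30, 7.58 and 8.52 in cKO and 8.28, 8.51 and 8.37 in control hypothalami. In these 3 genes the first 2 cKO animals lay below all controls and the third among or above them. The genes that take cholesterol out of cells stood on the other side, with 5 of 11 higher at an unadjusted p under 0.05 (45.5%, against 4.61%). Abca1, the pump that loads lipid onto apolipoproteins, had 10.80, 10.51 and 9.91 in cKO and 9.81, 9.74 and 9.90 in control hypothalami (0.59 ± 0.18). Of the named genes of synthesis, 2 had a RefSeq promoter, and neither held the sterol response element TCACCCCAC, which 0.614% of all genes held.

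Vip, the vasoactive intestinal peptide of the light-receiving core of the suprachiasmatic nucleus, had the largest difference on the lower side of all tested genes. It had 7.62, 6.25 and 7.43 in cKO, against 8.62, 8.87 and 8.75 in control hypothalami (-1.65 ± 0.28 SE, 3.13-fold lower, adjusted p = 0.369 by limma). All 3 cKO animals lay far below the lowest control, and the second was the lowest. The 6 hypothalamus arrays of 4 weeks had 8.57, 8.62 and 8.55 in cKO and 8.52, 8.81 and 8.28 in control mice. Without the second cKO array the gene was called (adjusted p = 0.0521, difference -1.22), as it was without the third (adjusted p = 0.00572). In the cortex, where other neurons use the same peptide, the 3 cKO animals had 9.64, 9.46 and 9.43 and the 3 controls 9.59, 9.63 and 9.46.

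Of 12 tested genes of the suprachiasmatic nucleus, Vip among them, 11 had a lower mean in cKO mice. At an unadjusted p under 0.05, 3 were lower (25%, against 2.02% of all genes). The median difference was -0.28, and -0.14 without control replicate 2. Prok2, a signal that carries the rhythm out of the nucleus, had 5.80, 5.51 and 5.99 in cKO and 6.01, 6.47 and 6.11 in control hypothalami. Six6, a transcription factor that its development needs, had 6.50, 6.67 and 7.46 in cKO and 7.40, 8.00 and 7.44 in control mice, with the third cKO animal among the controls. Avp, a peptide of its shell and of other nuclei, had 11.68, 11.91 and 12.45 in cKO and 11.90, 12.82 and 12.37 in control mice, and Grp, of its core, 8.38, 8.17 and 8.25 in cKO and 8.84, 8.33 and 8.80 in control mice. On the arrays of control replicate 2, Vip, Six6, Prok2 and Avp were each the highest of the 6. Of 18 tested clock genes, 1 (Npas2, by 0.21, with -0.03 at its second probe set) was higher and none lower at an unadjusted p under 0.05. The share higher was 5.56%, near the 4.61% of all genes.

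Of 27 tested peptides with a role in feeding, 22 had a lower mean in cKO mice, 4 of them at an unadjusted p under 0.05 (14.8%, against 2.02% of all genes), namely Vip, Hcrt, Sst and Bdnf. The median difference was -0.15, and -0.21 without the third cKO array. Hcrt, the precursor of the orexins that promote waking and feeding, had 12.30, 12.34 and 11.31 in cKO, against 12.56, 12.52 and 12.80 in control hypothalami (-0.64 ± 0.24, adjusted p = 0.562). Here the third cKO animal, near the controls for the immune genes, was by far the lowest, and its receptor Hcrtr1 had 6.85, 6.64 and 6.76 in cKO and 7.39, 6.96 and 7.04 in control mice. Pmch, whose neurons lie next to those of Hcrt, had 13.35, 13.50 and 13.27 in cKO and 13.41, 13.43 and 13.53 in control hypothalami.

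Pomc, the precursor of the peptide that curbs appetite, had 8.49, 9.43 and 10.71 in cKO and 9.72, 10.57 and 10.07 in control hypothalami. The first 2 cKO animals lay below all controls and the third above them, and the gene was called lower without the third array (adjusted p = 0.0445). Npy, which drives feeding, was lowest in the same 2 animals, with the third among the controls, at 8.74, 9.24 and 9.99 in cKO and 9.79, 10.19 and 9.54 in control mice. Cartpt, another peptide that curbs feeding, had 10.55, 11.04 and 11.39 in cKO and 11.38, 11.32 and 11.04 in control mice, with the third cKO animal level with the highest control. Bdnf, a growth factor whose loss makes mice overeat, had 7.94, 8.09 and 8.56 in cKO and 8.54, 8.44 and 8.55 in control mice, and Sst, the somatostatin precursor, differed by -0.17, both with an overlap at the third cKO animal. Crh, which starts the stress response, ran the other way with 8.41, 8.70 and 7.57 in cKO and 7.88, 7.53 and 7.87 in control hypothalami. Of 27 feeding receptors and their signalling genes, 1 was higher (Socs3) and 3 lower (Hcrtr1, Npy5r and Calcr) at an unadjusted p under 0.05. The shares were 3.70% higher and 11.1% lower, against 4.61% and 2.02% of all genes. Lepr, the leptin receptor, had 6.03, 6.19 and 6.40 in cKO and 6.33, 6.15 and 6.36 in control mice, and the groups overlapped.

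Transcription factors that lay out the hypothalamus had a lower mean in 16 of 22 cases. Otp, which directs neurons of the paraventricular and arcuate nuclei, was lower without overlap, with 10.57, 10.74 and 10.79 in cKO and 10.80, 11.13 and 10.95 in control mice, and Six6 and Hmx3 were the other genes lower at an unadjusted p under 0.05. A second probe set of Otp differed by 0.08, in the other direction. Lhx6 was the 1 gene higher. The shares at that level were 13.6% lower and 4.55% higher, against 2.02% and 4.61% of all genes. Of 19 synaptic genes and 86 genes of oxidative phosphorylation none passed an unadjusted p under 0.05, and the median differences of these lists were -0.03 and 0.01.

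Genes of fat metabolism had small differences. All 10 tested genes of fatty acid oxidation had a higher mean in cKO mice. At an unadjusted p under 0.05, 2 of the 10 were higher, against 4.61% of all genes. They were Cpt1a, which lets fatty acids into mitochondria, by 0.23, and Angptl4, an inhibitor of lipoprotein lipase, by 0.21. Of 15 genes of fatty acid synthesis 1 was lower (6.67%, against 2.02% of all genes). This was Scd1, which makes monounsaturated fatty acids, with 6.07, 6.11 and 6.06 in cKO and 6.52, 6.23 and 6.15 in control mice. Both Cpt1a and Scd1 showed no overlap between the groups on these probe sets. On a second probe set of Scd1, with higher levels, the groups overlapped. It had 11.35, 11.41 and 11.57 in cKO and 11.65, 11.45 and 11.63 in control mice (-0.13).

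Markers of other cells were read beside the immune genes. Gfap, the intermediate filament of astrocytes, had 11.07, 10.23 and 9.25 in cKO, against 8.98, 8.37 and 9.05 in control hypothalami (1.38 ± 0.34 SE, adjusted p = 0.405 by limma), and Aqp4, their water channel, 9.10, 8.50 and 8.15 in cKO and 8.04, 7.26 and 7.81 in control mice. All cKO animals lay above all controls in both on these probe sets. On another Aqp4 probe set, with higher levels, the groups overlapped. It had 11.21, 10.73 and 10.37 in cKO and 10.38, 9.87 and 10.48 in control mice. Of 19 astrocyte genes, 4 were higher without overlap (21.1%, against 6.24% of all genes). At an unadjusted p under 0.05, 2 of the 19 were higher (10.5%, against 4.61%). Of 23 genes of reactive astrocytes 7 were (30.4%), with Osmr, a receptor of oncostatin M, at 0.85. Blood leukocytes carry many of the immune genes above, and their part in these differences was not tested. Of their defining markers, Cd3g of T cells and Ms4a1 of B cells lay under the level set for a tested gene. Cd3e and Cd8a, of T cells, differed by 0.02 and 0.02, and Cd79a, of B cells, by -0.31, on the lower side and without overlap. Ccr2, of monocytes, differed by 0.03, with 4.89, 4.94 and 4.74 in cKO and 4.94, 4.75 and 4.79 in control hypothalami, near the limit of 4.9 set for a tested gene. S100a8 and S100a9, of neutrophils, differed by -0.15 and -0.28. Of 12 tested of 21 listed leukocyte genes, 1 was higher (Nkg7 of killer cells, by 0.30) and 1 lower (Cd79a) at an unadjusted p under 0.05. Each was 8.33% of the list, against 4.61% higher and 2.02% lower over all genes. The median deviation of the 12 was -0.09, -0.13 and 0.12 on the cKO arrays, against -0.08, -0.10 and -0.02 on the control arrays.

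Of 10 tested genes of macrophages at the brain's borders, 1 (Ms4a7, by 0.42) was higher at an unadjusted p under 0.05 (10.0%, against 4.61% of all genes). The median deviation of the list was 0.03, -0.11 and 0.41 on the cKO arrays, against 0.12, -0.20 and 0.14 on the control arrays, with the third cKO array the highest. Ependymal genes had a higher mean in 17 of 19 cases, 3 of them at an unadjusted p under 0.05 (15.8%, against 4.61% of all genes) and none without overlap. Of 11 tanycyte genes 2 were lower at that level (18.2%, against 2.02% of all genes). Among them was Col25a1, a collagen, with 9.69, 9.77 and 9.85 in cKO and 9.93, 10.22 and 10.04 in control mice (a difference of -0.0255 on its other probe set). Oligodendrocyte genes had a lower mean in 19 of 23 cases, 1 at an unadjusted p under 0.05 (4.35%, against 2.02% of all genes). Neuronal genes had a lower mean in 14 of 18 cases, with a median difference of -0.04. At that level 1 of the 18 was lower (5.56%), Nefh, a neurofilament chain, by a difference of -0.25, and none was higher. For 5 of the 18 all cKO arrays lay below all control arrays (27.8%, against 6.2% of all genes). Of 20 endothelial genes 1 was lower at an unadjusted p under 0.05 (5.0%, against 2.02% of all genes). This was Mfsd2a, a lipid transporter of the blood-brain barrier, with 8.03, 7.96 and 7.90 in cKO and 8.34, 8.34 and 8.27 in control hypothalami. None of 15 genes of the microRNA machinery passed an unadjusted p under 0.05, and their differences lay between -0.11 and 0.11.

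Some genes varied more with the replicate number than between the group means. Slc6a3, the dopamine transporter, had 9.78, 5.96 and 9.07 in cKO and 10.98, 6.58 and 10.56 in control hypothalami, so that replicate 2 was the lowest in both groups. Th, which makes the precursor of dopamine, had 9.18, 8.14 and 8.96 in cKO and 10.27, 8.29 and 9.92 in control mice. Both were lower in cKO than in control mice at each replicate number, while the groups overlapped. Slc47a1, an exporter of the leptomeninges, was high on replicate 3 in both groups (5.56, 5.31 and 8.02 in cKO and 5.84, 5.22 and 7.73 in control hypothalami), and Gh, a hormone of the pituitary, was high on replicate 2 in both (3.90, 8.69 and 5.21 in cKO and 3.48, 6.78 and 5.48 in control mice). The 23 leptomeningeal genes deviated by a median of -0.26, -0.35 and 1.60 on the cKO arrays, against 0.21, -0.51 and 1.14 on the control arrays. Thus arrays of the same number were alike in these genes of neighbouring tissue, while the immune genes separated the third cKO array from the first 2.

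Other genes of certain neurons separated the first 2 cKO animals from all others. Lhx8, a factor of cholinergic neurons of the basal forebrain named after its values were seen, had 8.24, 8.89 and 3.97 in cKO and 4.89, 4.57 and 5.77 in control hypothalami. Lhx6, a factor of neurons that migrate from the ventral forebrain, had 6.98, 7.44 and 5.94 in cKO and 5.90, 5.90 and 6.17 in control mice, with the same 2 animals above all controls and the third among them. Both genes were called without the third cKO array (adjusted p = 1.66e-04 and 6.40e-04 by limma). The part of the dissection in the differences between animals was not tested.

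**Figure D4:**
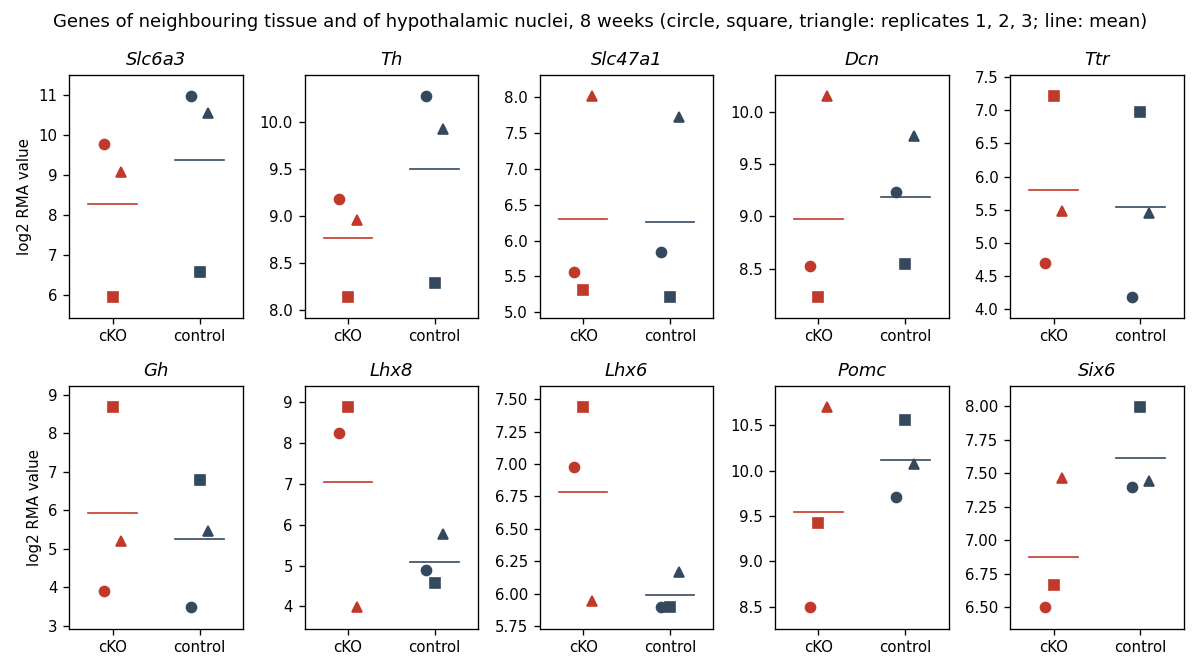
Log2 RMA value of 10 genes that mark neighbouring tissue or certain neurons on each hypothalamus array of 8 weeks, cKO in red on the left and control in blue on the right. Circles, squares and triangles are replicates 1, 2 and 3, and lines are means of 3 arrays; axes differ between panels. Slc6a3, Th, Slc47a1, Ttr and Gh run by replicate number in both groups, while Lhx8 and Lhx6 are high in cKO replicates 1 and 2 alone.

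At 4 weeks, in other animals, 0 of 15423 genes were called in the hypothalamus, and 426 were at an unadjusted p under 0.05 in either direction (2.76%). The median difference of the interferon list was -0.02 and that of the microglia list -0.05. The 8-week change exceeded the 4-week change by 1.20 ± 0.19 SE for Tspo (adjusted p = 0.576 by limma), by 0.71 for S100a6 and by 2.76 for Cxcl10, and the same difference was -0.73 for Dlk1, a membrane protein that also marks some hypothalamic neurons. No gene was called in this test of the interaction (689 at an unadjusted p under 0.05). Without the third cKO array of 8 weeks, 325 genes were called.

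The cortex of the same 6 animals allows the comparison within an animal. There the median deviation of the interferon list was 0.19, 0.13 and -0.05 in the cKO mice, against 0.08, -0.06 and 0.08 in the control mice, and that of the microglia list 0.17, 0.13 and 0.02 in the cKO and 0.03, -0.01 and -0.02 in the control mice. Cxcl10 had 4.44, 4.22 and 3.99 in the cKO cortices and 4.22, 4.21 and 4.28 in the control cortices. The hypothalamus and the cortex were normalised apart, so only deviations and changes are set side by side. The change in the hypothalamus exceeded that in the cortex by 1.67 ± 0.37 SE for H2-D1 and 1.21 ± 0.25 for Ifi35, and the same difference was -1.60 ± 0.30 for Vip (adjusted p = 0.500 by limma with the animal as a random block). Of 13687 genes measured in both tissues none was called (875 at an unadjusted p under 0.05), and 271 were without the third cKO animal. The cholesterol list deviated by -0.28, -0.04 and -0.00 in the cKO cortices, against -0.02, 0.02 and -0.03 in the control cortices, with the first cKO animal the lowest.

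**Figure D5:**
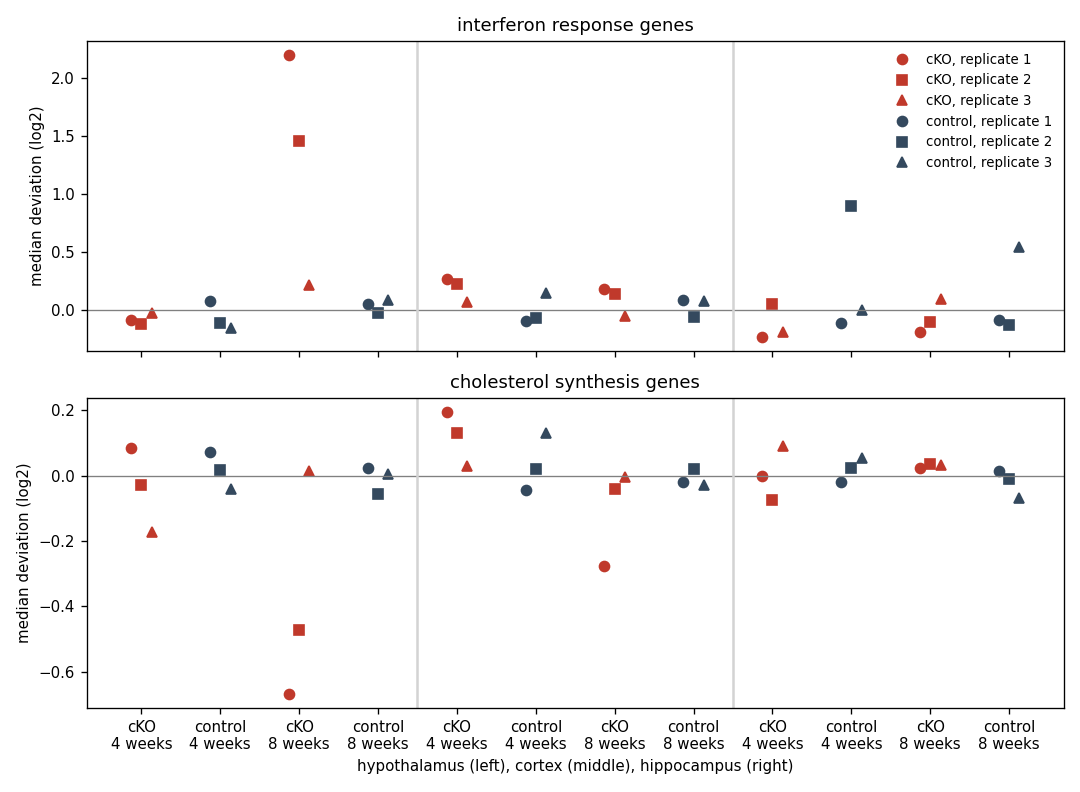
Median deviation of the interferon genes (upper panel) and of the cholesterol synthesis genes (lower panel) on all 36 arrays, from each gene's median over the 6 control arrays of that tissue (log2). Red marks are cKO arrays and blue marks control arrays; circles, squares and triangles are replicates 1, 2 and 3. The interferon list reaches 2.20 and 1.46 on the first 2 cKO hypothalamus arrays of 8 weeks and its highest value elsewhere is 0.90, on a 4-week control array of the hippocampus.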

How the data were processed

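Per the labels, total RNA of each tissue block was hybridised to an Affymetrix mouse expression array, 1 array for each animal and tissue. The authors normalised the arrays of each tissue separately by RMA and deposited log2 expression values (the sources used here name no software version), in which the level of a probe set cannot be compared with that of another. The number of arrays limits the precision, and no depth applies. The present arrays lack the detection calls that the authors used as a filter. In their place, probe sets annotated to 1 or more genes were kept where the third-highest of the 12 hypothalamus arrays reached 4.9 (4.3 in the cortex). The probe set with the highest variance stood for a gene, which left 15423 genes, 445 of them with several joined symbols.

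Differences were fitted with limma 3.58.1 in R 4.3.3 (4 groups of 3 arrays, empirical Bayes) and called at an FDR of 15% by the Benjamini-Hochberg method. The same fit gave the difference between the changes at 8 and 4 weeks, and a fit over both tissues with the animal as a random block (correlation 0.143) gave the difference between hypothalamus and cortex. The steps were tested on simulated data. Gene lists were described by counts and medians, without a test. The members of the lists, the lists and the genes named were chosen with earlier results of these data known. Named were Dicer1 and Camk2a, the 20 largest differences in each direction among genes at an unadjusted p under 0.05 whose groups did not overlap, the 10 lowest p-values, up to 5 members of each list by p, all members of the lists on feeding, the suprachiasmatic nucleus and the microRNA machinery, the 5 lowest p-values of both differences of changes, and markers that define a cell type.

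Same-numbered cKO and control arrays of 8 weeks deviated together from their group means (correlations over genes 0.199, 0.265 and 0.271), so the numbers were taken to pair the arrays at 8 weeks, from the data and not from the labels. At 4 weeks the correlations were 0.113, -0.0267 and 0.230. Alternatives were the replicate block, other filters and probe set choices, centring, quantile normalisation, array weights, an intensity trend, robust fitting, the 6 arrays alone, the methods' t-test, another FDR, and leaving out each array. Promoters were RefSeq sequences of GRCm38.p6, searched on both strands for GAAANNGAA and TCACCCCAC.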

Additional observations from a re-analysis of the deposited data

Results flagged for a closer look

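Outside the hypothalamus, 2 control arrays of the hippocampus stood above the other control arrays of that tissue in the immune lists. On the second control array of 4 weeks the interferon genes deviated by a median of 0.900 and the microglia genes by 0.591 from the hippocampal control arrays. On the third control array of 8 weeks the interferon genes deviated by 0.545 and the microglia genes by 0.353. These are vehicle-treated animals that enter no comparison above, and whether their values have a source in common with those of the cKO hypothalami was not tested.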

How the results depend on the processing

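The count of genes called in the hypothalamus at 8 weeks was 0 and stayed at 0 with the methods' t-test, no filter, quantile normalisation, the probe set of highest mean and the 6 arrays alone. It was 2 (Tspo and S100a6) among the 10000 highest genes, 2 (the same genes) with an intensity trend, 1 (Tspo) with centred arrays, 1 (Tspo) with robust fitting, 2 at an FDR of 25% and 5.6e+02 with array weights (443 higher and 114 lower). With the replicate block, which treats like-numbered arrays as paired, it was 2 (Tspo and Ifitm3) over the 12 arrays and 0 over the 6 arrays of 8 weeks alone (lowest adjusted p = 0.572 by limma), and the block changed no other call. Leaving out 1 array gave 0 to 516 called genes, 516 without cKO replicate 3 and 1 without cKO replicate 2. The number at an unadjusted p under 0.05 was 1022, against 1955 with array weights, and 633 to 1386 when 1 array was left out, lowest without cKO replicate 1. Of these genes 69.6% were higher in cKO mice, against 49.3% with centred arrays, which moved the median of all genes from -0.003 to -0.033, 47.1% with the t-test and 57.5% with array weights.

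For the difference between times, leaving out 1 array gave 0 to 325 called genes, and for the difference between tissues 0 to 271, in both highest without cKO replicate 3. Leaving out 1 array gave medians of -0.300 to -0.140 for the suprachiasmatic list, highest without control replicate 2. For the feeding peptides they were -0.211 to -0.122, lowest without cKO replicate 3. The alternatives were also run for the lists on interferon, microglia, microglial activation, antigen presentation, the lysosome and cholesterol synthesis, and for no other list. In all other settings the medians moved by less than the spread between replicates. That spread includes the distance of the third cKO array, so leaving out 1 array could hardly exceed it, and the comparison does not measure stability. Without cKO replicate 1 the median was 0.83 for the interferon list, 0.58 for microglia, 0.61 for antigen presentation, 0.27 for the lysosome and -0.23 for cholesterol synthesis, and without cKO replicate 3 it was 1.35 for microglia and -0.57 for cholesterol synthesis. Among named genes the direction turned for 16 of 116. Without the filter Ccr2 had -0.118, with centred arrays Cd3e had -0.0058 and Cd8a -0.0051, and with array weights Ifitm1 had -0.294, Ifitm2 -0.132 and Slc47a1 -0.922. With 1 array left out, the range was -0.0072 to 0.0930 for Ccr2, -0.0341 to 0.0791 for Cd3e, -0.0060 to 0.0639 for Cd8a, -0.223 to 0.0248 for Dicer1, -0.290 to 0.3202 for Ifitm1, -0.101 to 0.425 for Ifitm2, -0.0615 to 0.303 for P2ry12, -0.437 to 0.137 for S100a8, -0.625 to 0.15 for S100a9, -0.0266 to 0.184 for Camk2a, -0.174 to 0.0106 for Lepr and -0.173 to 0.0151 for Oxt. It was -2.496 to 0.0574 for Slc6a3, -0.827 to 0.768 for Slc47a1, -0.445 to 0.980 for Ttr and -0.691 to 1.70 for Gh. The causes were not tested. With 3 animals a group, leaving out cKO replicate 3 moved the counts of called genes more than leaving out any other single array.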
